A study of Homo sapiens with 6 samples.

Results

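H1975 is a human non-small cell lung cancer line that carries an activating EGFR mutation together with a gatekeeper mutation. Its response to AL-X was described from 2 of the 6 RNA libraries of the study: 1 library of cells given DMSO, the solvent, and 1 of cells given 10 µg/mL AL-X, both taken at 48 h. AL-X is 9α,11α-dihydroxy-kaurenoic acid, a derivative of kaurenoic acid, which is a plant diterpene. The labels give the genotype of all libraries as WT without naming a gene, and the other 4 libraries are the DMSO and AL-X libraries of the lung cancer lines A549 and HCC827. The labels name no separate cultures behind a library. Of 60671 gene rows, 11818 reached at least 5 counts per 1e6 counts (CPM) in the higher H1975 library after scaling, and these are the genes described here. Among them 10935 are annotated as protein coding. With 1 library a side no difference within H1975 has a replicate check and none was tested. Every fold is the log2 ratio of scaled CPM, AL-X over DMSO, and its interval is the exact binomial 95% interval of the count ratio, which covers counting error only.

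A mitochondrion keeps a small circular genome that encodes 13 respiratory chain proteins, 2 ribosomal RNAs and 22 transfer RNAs. It is copied into long transcripts from both strands, which are then cut into single RNAs, while the proteins that copy and process it come from the nucleus. When protein folding or amino acid supply is disturbed, cells use separate nuclear programmes: the heat shock factor HSF1 switches on cytosolic chaperones, the integrated stress response acts through ATF4, and NRF2 switches on antioxidant genes. Immediate-early genes such as FOS and EGR1 are transcribed within minutes of many stimuli and their RNAs are short-lived. H1975 is used in the field as a model of resistance to EGFR inhibitors, so the receptors, ligands and feedback genes of the EGFR and ERK pathway are described too.

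The H1975 libraries held 104648304 counts (DMSO) and 112133896 counts (AL-X), within the range of 98139178 to 126840915 of all libraries. At least 1 count was seen for 27163 genes with DMSO and for 24278 with AL-X. All 6 epithelial marker genes were considered, and their summed level was 4114 CPM with DMSO and 7229 CPM with AL-X, with 139171 and 360468 counts of KRT7 in the respective libraries. Of 7 leukocyte markers only CD68 reached 5 CPM, of 7 fibroblast markers only COL1A1, and of 6 endothelial markers none. Their summed levels were 85.5 and 54.6 CPM (leukocyte), 14.7 and 9.2 CPM (fibroblast), and 7.2 and 1.7 CPM (endothelial). In each library 4 of the leukocyte markers were at 0.

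With AL-X, 1815 genes were at least 2-fold higher, 15.4% of those considered, and 2109 were at least 2-fold lower, 17.8%. Together they make 3924 genes, 33.2%. In the lists, a gene counted as higher or lower is at least 2-fold so, to be read against these shares; paired counts are DMSO first and AL-X second, and the number after them is the log2 fold. Larger differences were also common: 310 genes were at least 4-fold higher and 651 at least 4-fold lower, and at 16-fold the counts were 68 and 76. The median log2 fold over all genes considered was 0.06, with quartiles of -0.68 and 0.70. A gene under 5 CPM in 1 library was considered only through the other, which fixes the direction of its fold. The balance between higher and lower genes depended on the scaling. Of the genes past 2-fold, 46.3% were higher, against 19.7% when counts were divided by library totals alone, which moves the median of the same genes by -0.41, and 57.2% among genes with at least 20 CPM. Genes named beyond the rule given with the processing were chosen after their values were seen. Just past the limits lay RHEBP1 and GTF2IRD2B (log2 fold of -1.0017), and just short of them RPL7A (0.9998) and SH3PXD2B (-0.9992). The 5 CPM minimum fell between ENSG00000250264 at 5.00 CPM and INSIG1-DT at 4.99 CPM.

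**Figure D1:**
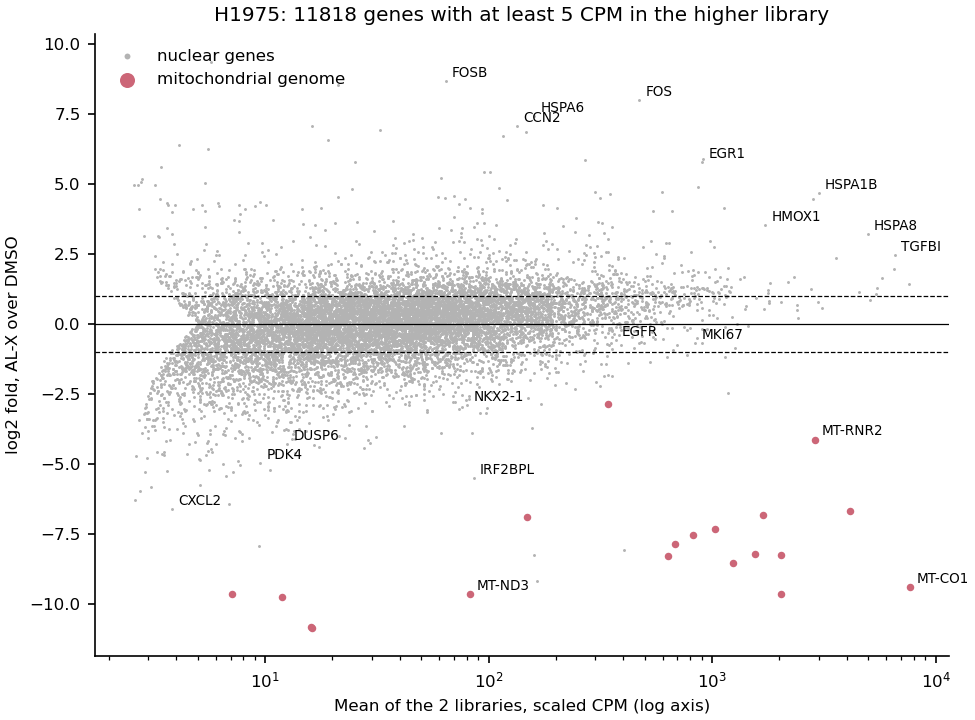
Each point is 1 gene of H1975, with the mean scaled CPM of both libraries on a log axis and the log2 fold of AL-X over DMSO on the other axis; dashed lines mark 2-fold. Points of the mitochondrial genome lie far below most nuclear genes, those with 0 counts in the AL-X library being placed by the prior count, and FOSB and FOS are among the highest.

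RNA of the mitochondrial genome was far lower with AL-X. The 37 genes of the mitochondrial genome took 6707342 counts with DMSO, 6.41% of the library, and 59991 with AL-X, 0.0535%. The 13 mRNAs had 5932576 counts with DMSO and 20265 with AL-X, and the 2 ribosomal RNAs had 759758 and 39724. In bulk RNA, fewer cells of a kind and less RNA per cell cannot be told apart. MT-CO1, a core subunit of cytochrome c oxidase and the most counted gene of the DMSO library, had 1921706 counts with DMSO and 2285 with AL-X, a log2 fold of -9.41 (95% interval -9.47 to -9.35). MT-CO3 of the same complex had 511313 counts with DMSO and 503 with AL-X and MT-CO2 had 509238 and 1322, log2 folds of -9.68 and -8.28. All 13 mRNAs were lower, with a median log2 fold of -8.22 against 0.06 over all genes.

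Within that common direction the mRNAs were not equally affected. The complex I subunit genes MT-ND4 and MT-ND5 kept the most counts: MT-ND4 had 1024819 counts with DMSO and 8002 with AL-X (-6.69, interval -6.72 to -6.66), and MT-ND5 had 419047 and 2993 (-6.82). MT-ND3 kept the fewest: it had 20658 counts with DMSO and 19 with AL-X (-9.65, interval -10.51 to -9.13). MT-ND3 lies a few genes before MT-ND4 on the same strand, and MT-ND4L, between them, was at -7.32. The other complex I genes on that strand, MT-ND1 and MT-ND2, had log2 folds of -8.29 and -7.56. MT-CYB of complex III had -8.55, and the ATP synthase genes MT-ATP6 and MT-ATP8 had -8.22 and -7.86. MT-ND6 is the single mRNA encoded on the opposite strand. It had 36958 counts with DMSO and 249 with AL-X, a log2 fold of -6.89 (95% interval -7.09 to -6.72), inside the range of the heavy-strand mRNAs. The strand setting of the counting is not given in the sources used here. Reads of MT-ND6 and of RNA from the other strand at its place thus cannot be told apart.

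The ribosomal RNAs, which lie nearest to the start of heavy-strand transcription, were less depleted than any mRNA. MT-RNR1 had 75385 counts with DMSO and 8283 with AL-X (-2.88, interval -2.91 to -2.84) and MT-RNR2 had 684373 and 31441 (-4.14, interval -4.15 to -4.12). The share of rRNA among the mitochondrial counts was accordingly 11.3% with DMSO and 66.2% with AL-X. The 22 tRNA genes, whose short products a library of this kind captures poorly, held 15008 counts with DMSO and 2 with AL-X. Of these genes 20 were at 0 with AL-X, and MT-TV and MT-TL1 had 1 count each. Against a floor of 3 counts in the AL-X library, MT-TY was at least 1094-fold lower (4067 counts with DMSO), MT-TS1 at least 1085-fold (4033) and MT-TC at least 479-fold (1779). These 3 lie on the strand opposite to most genes, but their bounds follow from their DMSO counts. MT-TL1, on the strand of most genes, had 2995 counts with DMSO and 1 with AL-X (-9.77). The 3 nuclear pseudogenes MTCO1P12, MTND2P28 and MTATP6P1, which copy mitochondrial genes, had log2 folds of -9.20, -8.25 and -8.09, and reads cannot be assigned with certainty between them and the genes they copy.

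**Figure D2:**
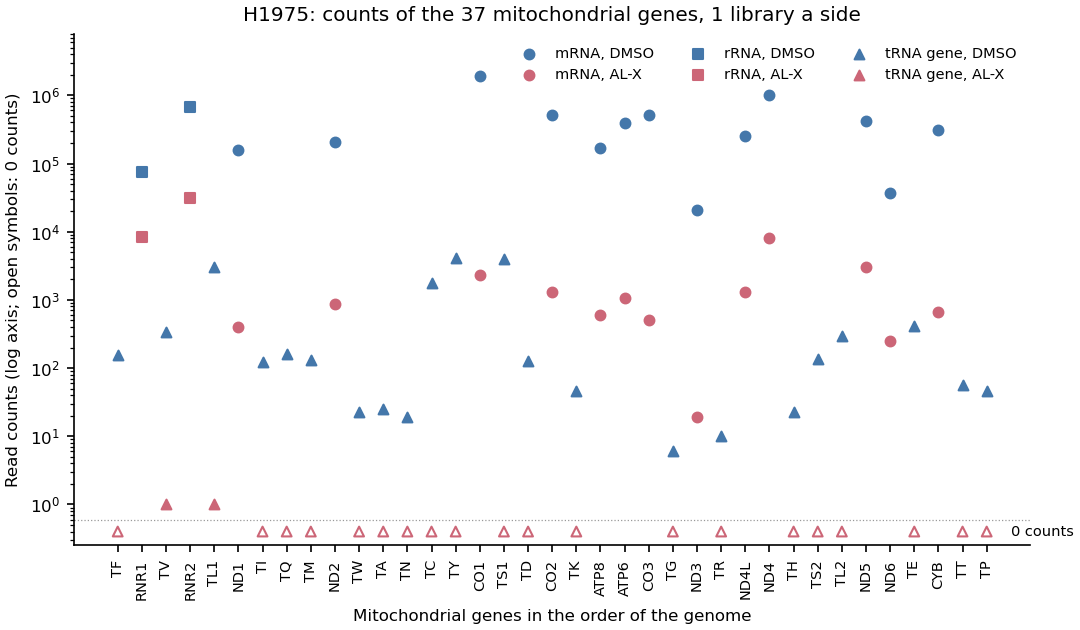
Read counts on a log axis for the 37 mitochondrial genes in genome order, blue for the DMSO library and red for the AL-X library; open symbols stand for 0 counts. Every gene lies lower with AL-X, MT-RNR1 and MT-RNR2 are separated less than any mRNA, and 20 tRNA genes have 0 counts.

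Nuclear genes for mitochondrial proteins were not lower as groups. Of 52 nuclear subunits of the respiratory chain, 11 passed 2-fold upward and 0 downward, with a median log2 fold of 0.78. Highest were NDUFC2, a complex I subunit (1873 and 4002 counts, 1.40), and COX6A1 of complex IV (9595 and 18194, 1.23). NDUFS1, the largest subunit of complex I, had 11848 and 8108 counts and -0.24, the lowest of the list. Of 42 mitochondrial ribosomal proteins, 9 were higher and 0 lower (median 0.71), from 1.33 for MRPS12 to -0.35 for MRPS14. Among 18 mitochondrial chaperones, proteases and import genes 4 were higher and 1 lower (median 0.74). The import co-chaperone GRPEL1 had 4419 counts with DMSO and 14593 with AL-X (2.03), whereas its paralog GRPEL2 had 2364 and 916 (-1.06).

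The nuclear genes that copy and process mitochondrial RNA showed another balance, with 2 of 29 higher, 2 lower and a median of -0.26. Of the transcription machinery, the polymerase POLRMT had 8501 counts with DMSO and 5821 with AL-X (-0.24), the DNA-packaging factor TFAM 8263 and 6026 (-0.15) and the initiation factor TFB2M 1946 and 1248 (-0.33). TEFM, the elongation factor that lets POLRMT make long transcripts, was the lowest of the list with 737 counts with DMSO and 215 with AL-X, a log2 fold of -1.46 (95% interval -1.69 to -1.25). MTERF1, which binds next to the rRNA genes, was at -1.05. The RNA-binding pair SLIRP and LRPPRC, which stabilise mitochondrial mRNAs, were at 1.07 and 0.16, and the termination-factor relative MTERF3 at 1.06. On the same log2 scale the median of the 13 mRNAs was -8.22.

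Immediate-early genes had the highest median among lists with more than 1 member considered. Of 19 considered, 14 passed 2-fold upward and 2 downward, the median log2 fold was 1.96, and 6 listed genes did not reach 5 CPM. The median of cytosolic chaperones was close, at 1.90. FOSB, FOS, RASD1 and ARC, at 0.30, 3.65, 2.51 and 0.38 CPM with DMSO, were considered only through the AL-X library. Their upward direction was thus fixed by the minimum, and they count in the 14 and in the median. FOSB (chr19:45467995-45475179, GRCh38) had 37 counts with DMSO and 12968 with AL-X, a log2 fold of 8.68 (95% interval 8.30 to 9.27). FOS (chr14:75278774-75282230), its relative in the AP-1 transcription factor, had 457 counts with DMSO and 95318 with AL-X (8.01, interval 7.88 to 8.15). EGR1, a zinc finger factor induced by ERK and serum response factor signalling, had 4038 and 179935 (5.79), RASD1, a Ras-related GTPase, 314 and 29573 (6.86), and ARC 48 and 3824 (6.56).

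Other AP-1 members had smaller folds than FOS or were lower. JUN had 12114 counts with DMSO and 4800 with AL-X (-1.03, interval -1.08 to -0.98), JUNB had 14333 and 11554 (-0.00), and the FOS relatives FOSL1 and FOSL2 were at 0.90 and 0.21, while JUND was at 1.96. The orphan nuclear receptor NR4A1, often induced together with FOS, was lower, with 1782 counts with DMSO and 656 with AL-X (-1.13). MYC, a transcription factor of cell growth, had 29007 counts with DMSO and 140245 with AL-X, a log2 fold of 2.58 (95% interval 2.56 to 2.60). ZFP36, which destabilises the RNAs of many such genes, was at 3.69, and the small MAF protein MAFF at 4.51. The Krüppel-like factors were split, with 5 of 12 higher and 4 lower. KLF10 had 7768 and 103264 counts (4.04) and KLF5 4108 and 17051 (2.36), against 1833 and 48 for KLF9 (-4.90) and 11952 and 1132 for KLF7 (-3.09). Their median of 0.39 became -0.02 with library totals.

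RefSeq promoter windows, the 250 bases before a gene's start on GRCh38.p14, were found for 9192 of the genes considered and searched on both strands. The CArG box, the binding sequence of serum response factor, lay in 2 of the 15 considered immediate-early genes that have a window (13.3%), both of them among the 11 higher ones (18.2%), against 1.47% of the genes considered and 1.44% of all 27305 genes with a window. Those 2 are EGR1 (chr5:138465349-138465430, plus strand) and SRF itself (chr6:43171214-43171268, plus strand), shown with their CArG boxes in capitals because both were among the higher genes.
EGR1: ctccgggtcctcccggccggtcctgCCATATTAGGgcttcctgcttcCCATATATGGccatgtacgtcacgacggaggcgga
SRF: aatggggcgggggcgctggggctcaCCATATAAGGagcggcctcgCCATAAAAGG
SRF had 6164 counts with DMSO and 11654 with AL-X (1.23). The cyclic AMP response element TGACGTCA lay in another 2 of the 11 (MAFF and JUND), against 3.61% of genes considered, and the AP-1 sequence TGANTCA in 0 of 11 against 5.86%. A match is a string of letters in a window and does not show binding.

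Most cytosolic chaperones were higher. At 2-fold, 18 of the 22 genes considered were higher and 1 was lower. Their median log2 fold was 1.90. HSPA6, the strictly stress-inducible HSP70, had 231 counts with DMSO and 32172 with AL-X, a log2 fold of 7.42 (95% interval 7.24 to 7.62). The inducible pair HSPA1B and HSPA1A, whose coding sequences are nearly identical so that reads may be split between them, had 28471 and 582766 and 30883 and 547272 (4.66 and 4.46). The constitutive HSPA8 had 120480 counts with DMSO and 907641 with AL-X (3.22). With HSP90AA1 at 333356 and 1051125 (1.97) it was among the 10 genes with the most counts of the AL-X library and not of the DMSO library.

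The co-chaperones of HSP70 and HSP90 went with them. DNAJB1, which feeds substrates to HSP70, had 15352 counts with DMSO and 217357 with AL-X (4.13), the nucleotide exchange factor HSPH1 19269 and 114244 (2.88), and BAG3 16591 and 68530 (2.35). The HSP90 partners AHSA1, STIP1 and FKBP4 were at 1.93, 1.78 and 1.29. HSF1, the transcription factor of the programme, was at 1.03. HSPA4L, an HSP110 relative, was the exception with 3902 counts with DMSO and 1153 with AL-X (-1.45), and HSPA4 was at 0.32. CRYAB and HSPA1L did not reach 5 CPM.

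The heat shock element, searched as GAANNTTC or TTCNNGAA, which can overlap, lay in the promoter windows of 13 of the 20 considered members that have one (65.0%), and in 11 of the 16 that were 2-fold higher (68.8%). Among all genes considered the share was 11.7%, and among all 27305 it was 14%. In genes 2-fold higher and 2-fold lower as a whole the shares were 12.8% and 12.5%. Examples, with elements in capitals, are HSPA6 (chr1:161524335-161524503), HSPA1B (chr6:31827608-31827665) and HSPB1 (chr7:76302466-76302523), all on the plus strand. They span the range of the response, from the largest fold to a member at the limit, and their printed stretches overlap no annotated exon.
HSPA6: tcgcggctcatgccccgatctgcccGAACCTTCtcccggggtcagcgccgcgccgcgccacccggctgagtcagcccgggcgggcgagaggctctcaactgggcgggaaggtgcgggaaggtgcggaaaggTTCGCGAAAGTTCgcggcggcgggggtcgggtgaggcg
HSPA1B: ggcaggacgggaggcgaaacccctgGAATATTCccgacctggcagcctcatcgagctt
HSPB1: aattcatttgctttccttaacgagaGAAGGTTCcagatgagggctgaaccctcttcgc
In HSPA6 there are 3 elements, of which a pair overlaps in the run TTCGCGAAAGTTC, whereas HSPA1B and HSPB1 hold 1 each. HSPB1, the small heat shock protein, had 96552 counts with DMSO and 157181 with AL-X (1.01).

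Protein disposal genes were higher with a narrow spread. Of 31 proteasome subunits 21 passed 2-fold upward and 0 downward, and the median was 1.17 (0.76 with library totals). The folds ran from 0.44 for PSMD12 to 2.05 for PSMD8, both lid subunits of the regulatory particle, and PSMC4, one of its ATPases, had 3596 counts with DMSO and 11822 with AL-X (2.03). All 4 ubiquitin genes considered were higher. UBB, a polyubiquitin gene, had 64586 counts with DMSO and 167550 with AL-X (1.68). Of 28 autophagy and lysosome genes 6 were higher and 0 lower (median 0.52), among them the autophagosome protein MAP1LC3B (7305 and 23548, 2.00) and the lysosomal galactosidase GLA (2614 and 10845, 2.36).

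The integrated stress response was higher in 16 of 27 genes and lower in 1, with a median of 1.55. PPP1R15A, the phosphatase subunit that ends the response, had 7082 counts with DMSO and 170004 with AL-X, a log2 fold of 4.89 (95% interval 4.86 to 4.93). ATF3 had 672 and 12428 (4.51), the asparagine synthetase ASNS 4171 and 46597 (3.79), and the stress transcription factor DDIT3 2151 and 20005 (3.52). ATF4 itself, which is controlled mainly at translation, had 18059 counts with DMSO and 55511 with AL-X (1.93).

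The amino acid part of this programme was uneven. The transporter genes SLC7A5 and SLC3A2, which encode partners in 1 carrier, were at 1.86 and 2.54, whereas SLC7A11 and SLC38A2 were at 0.16 and 0.04. PSAT1 and PHGDH, neighbouring steps of serine synthesis, were at 1.88 and 0.54. Of 18 tRNA synthetases 6 were higher and 0 lower (median 0.70), led by the glycyl enzyme GARS1 (34350 and 119110, 2.10). VLDLR, a lipoprotein receptor, was the lower member with 2982 counts with DMSO and 541 with AL-X (-2.15).

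The C/EBP-ATF element TGATGNAA lay in 5 of the 24 considered members that have a window (20.8%) and in 4 of the 16 higher ones (25%), against 2.08% of genes considered and 3.89% of all genes with a window. Those 4 are ATF3, ASNS, CHAC1 and CEBPG. For ATF3 (chr1:212565191-212565248) and CEBPG (chr19:33374046-33374103), both plus strand, the stretch outside annotated exons is given with the element in capitals, since they mark a strong and a weak response within the list.
ATF3: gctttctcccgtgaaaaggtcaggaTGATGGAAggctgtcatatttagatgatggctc
CEBPG: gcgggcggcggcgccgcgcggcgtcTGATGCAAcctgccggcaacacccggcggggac
CEBPG had 2878 counts with DMSO and 4771 with AL-X (1.04).

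Chaperones of the endoplasmic reticulum were higher in fewer genes, 8 of 22 with 1 lower and a median of 0.82. DNAJB9, a co-chaperone that restrains the sensor IRE1, had 1260 counts with DMSO and 11095 with AL-X (3.44), and HSPA5, the main chaperone of this compartment, 59301 and 189969 (1.99). The sensor gene ERN1 was at 1.85, while EIF2AK3 and ATF6, the other sensors, were both at 0.37. EDEM1, which sends misfolded glycoproteins to degradation, was lower (12789 and 4417, -1.22).

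Among NRF2 targets and glutathione genes 13 of 24 were higher and 0 lower, with a median of 1.11. HMOX1, the haem-degrading enzyme, had 34776 counts with DMSO and 321809 with AL-X, a log2 fold of 3.52 (95% interval 3.50 to 3.53). OSGIN1 had 1286 and 8244 (2.99) and the peroxiredoxin repair enzyme SRXN1 7511 and 26490 (2.13), and NFE2L2, the gene for NRF2, was at 1.65. Of the glutathione-synthesis subunits GCLM was at 1.44 and GCLC at 0.37, and glutathione reductase GSR was at -0.51. The aldo-keto reductases AKR1B10, AKR1C1, AKR1C2 and AKR1C3, GPX2 and ABCC2 were under 5 CPM in both libraries. The antioxidant element TGACNNNGC lay in 5 of the 17 considered members that have a window (29.4%) and in 1 of the 10 higher ones (10.0%), against 16.0% of genes considered. Of 7 metallothionein-related genes 3 were higher, MT1X most (2089 and 4534, 1.43).

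**Figure D3:**
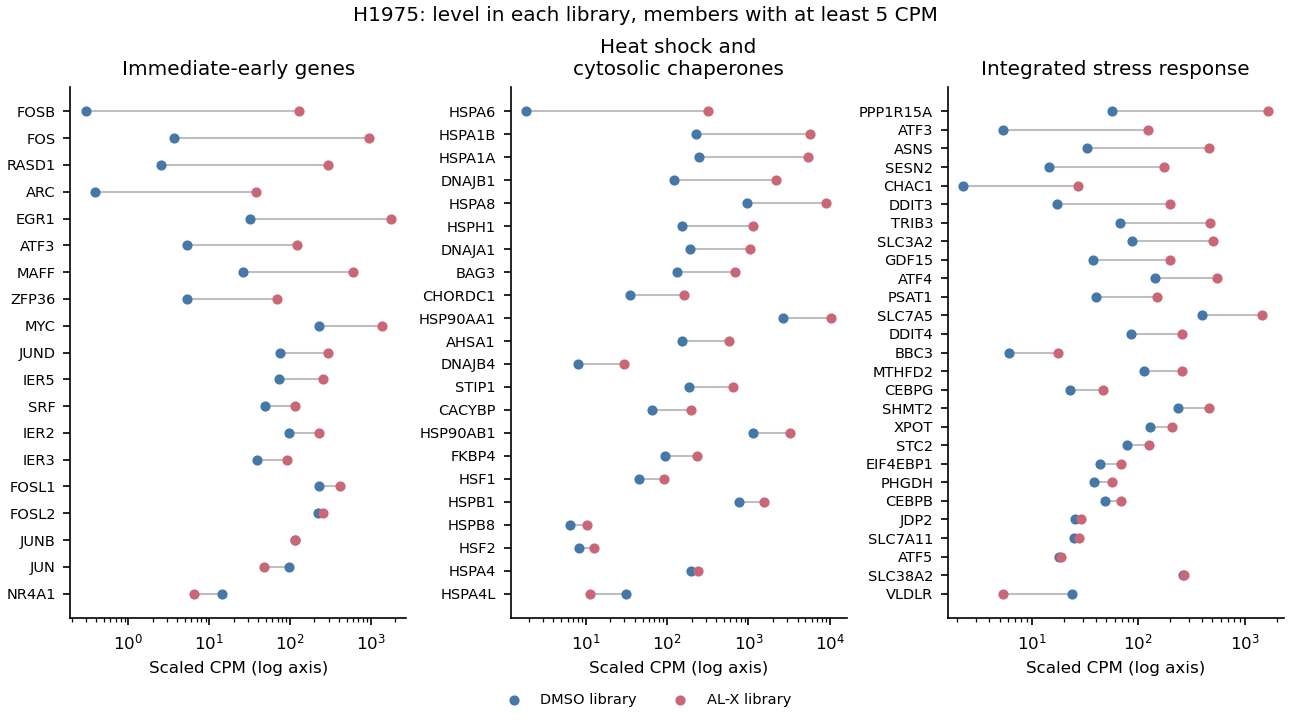
Scaled CPM on a log axis in the DMSO library (blue) and the AL-X library (red) for each considered member of 3 lists, ordered by log2 fold. AL-X points lie right of DMSO for most members, the reverse holds for JUN, NR4A1, HSPA4L and VLDLR, and the points of JUNB coincide.

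Ribosomal protein genes were higher almost throughout. Of 73 cytosolic ribosomal proteins 65 were at least 2-fold higher and 0 lower. The median was 1.31 (0.90 with library totals) and the folds stayed between 0.82 (RPL34) and 2.07 (RPS28). The ribosomal protein pseudogenes, chosen after their values were seen, gave a like picture with 52 of 63 higher and 1 lower, and share reads with the genes they copy. Non-coding host genes of small nucleolar RNAs, many of which share with ribosomal protein genes a start of pyrimidines, were higher in 10 of 15 with 0 lower and a median of 1.28. SNHG12 led with 1648 counts with DMSO and 6794 with AL-X (2.35), and GAS5 had 9159 and 19618 (1.41). Of 17 SR splicing factors and their kinases 7 were higher and 0 lower (median 0.64). TRA2B had 18575 counts with DMSO and 110354 with AL-X (2.88) and SRSF7 12394 and 59131 (2.56), whereas SRSF1 was at 0.06.

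Of 12 ERBB receptors and ligands considered 5 were higher and 2 lower, and their median of 0.33 became -0.08 with library totals. Of the receptors, EGFR, the mutated driver of this line, had 55530 counts with DMSO and 29980 with AL-X (-0.58, interval -0.60 to -0.56), ERBB2 29350 and 23485 (-0.01), and ERBB3 18635 and 4069 (-1.89). MET, a receptor that can stand in for EGFR, had 72585 and 31921 (-0.88), and AXL, another such receptor, 3802 and 4863 (0.66). Of the ligands, HBEGF was at 580 and 20152 (5.42, interval 5.31 to 5.55), NRG1 at 1.74, EREG at 1.37 and AREG at 1.31, and TGFA at -0.23. ERRFI1, an inhibitor that binds the EGFR kinase, was at 1.36, and the negative regulator LRIG3 at -2.31.

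Output and feedback genes of ERK were also divided, with 7 of 21 higher and 6 lower and a median of 0.16 that became -0.25 with library totals. The nuclear phosphatases DUSP5, DUSP1 and DUSP2 had 5746 and 57795, 1784 and 15988 and 109 and 999 (3.64, 3.47 and 3.48). DUSP6 (chr12:89347232-89353271), the cytoplasmic phosphatase of ERK, had 2999 counts with DMSO and 122 with AL-X, a log2 fold of -4.29 (95% interval -4.58 to -4.05). DUSP4 (-1.17), SPRED1 (-2.33), ETV1 (-2.16) and PHLDA1 (-1.07) were lower as well. The Sprouty genes went opposite ways, SPRY4 with 2126 and 8854 (2.37) and SPRY2 with 1528 and 667 (-0.89). ETV4 and ETV5 were at -0.18 and 0.19, and CCND1, the cyclin of the pathway, at 0.16.

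Among p53 target genes 10 of 22 were higher and 2 lower, with a median of 0.82. The highest members answer to other stress signals as well: GADD45B (3805 and 181303, 5.88), the kinases PLK3 (850 and 15224, 4.47) and PLK2 (2175 and 33561, 4.26). CDKN1A, the cell cycle inhibitor p21, had 5215 counts with DMSO and 32493 with AL-X (2.95, interval 2.91 to 2.99). SESN2 (1824 and 17886 counts), GADD45A (3.03), GDF15 (2.39), BBC3 (1.55), TP53I3 (1.20) and BAX (1.02) were the other higher members. Lower were MDM2 and PHLDA3, and the other 10 targets lay within 2-fold, between -0.56 (CCNG1) and 0.97 (TIGAR). MDM2, the ligase that degrades p53, had 4152 counts with DMSO and 891 with AL-X (-1.91), and PHLDA3 was at -1.26.

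Apoptosis regulators included both signs, 5 of 23 higher and 6 lower, with a median of 0.17 that became -0.24 with library totals. MCL1, a short-lived survival protein, had 33222 counts with DMSO and 179283 with AL-X (2.74), and the BH3-only genes PMAIP1 and BBC3 were at 1.69 and 1.55. BMF, another BH3-only gene, was among the largest falls, with 1646 counts with DMSO and 29 with AL-X (-5.43, interval -6.10 to -4.99). The inhibitor of apoptosis BIRC3 had 1224 and 33 (-4.83), XIAP 12304 and 3694 (-1.43), and the initiator caspase CASP8 8147 and 1202 (-2.45). The death receptor TNFRSF10B was at 0.05.

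Cell cycle genes differed less as groups. Of 32 replication and E2F genes 4 were higher and 2 lower, and the median of 0.35 became -0.06 with library totals. CCNE1, the cyclin of S-phase entry, had 2027 counts with DMSO and 12343 with AL-X (2.91) and the origin factor ORC6 3849 and 13108 (2.08). E2F2 and E2F8, by contrast, had 1814 and 98 (-3.88) and 5479 and 928 (-2.25). Of 31 mitotic genes 1 was higher, AURKB (1.42), and 5 were lower, with a median of -0.17. ASPM and CENPF, both long mRNAs for spindle and kinetochore proteins, had 17597 and 2373 (-2.58) and 64481 and 14245 (-1.87), MKI67 had 130336 and 64770 (-0.70), and CDK1 was at 0.96. CDK6, the kinase of early G1, was at -1.46, against CDK4 at 0.56.

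Histone genes seen in these poly(A) libraries had a negative median. Of 11 considered 1 was higher and 4 were lower, with a median of -0.88, while 12 listed genes failed the level minimum or had no symbol match. H2BC12 was the higher member (4882 and 14194, 1.85).

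Inflammatory genes were mixed. Of 11 cytokines and chemokines considered 4 were higher and 4 lower, and 14 others did not reach 5 CPM. CXCL2, which attracts neutrophils, had 954 counts with DMSO and 6 with AL-X (-6.64, interval -8.45 to -5.88), and CXCL1 had 804 and 56 (-3.49), while the related CXCL8 was at -0.24. PTGS2, the inducible prostaglandin synthase, went the other way with 111 and 1562 (4.10), as did IL11 with 1787 and 9822 (2.77). Of 17 NF-kB subunits and feedback genes 3 were higher and 5 lower (median -0.29). The feedback inhibitors NFKBIA and TNFAIP3 were at -1.54 and -1.33, and NFKBIZ, a nuclear co-regulator, at 3.50 (4369 and 39903). SOCS1, the brake on cytokine receptors, was among the 12 largest rises with 268 counts with DMSO and 23166 with AL-X (6.73), and so was TNFSF9, the ligand of a T cell co-stimulatory receptor, with 1147 and 53670 (5.85).

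Cytoskeletal and matrix genes were more often higher than lower. Of 16 actin cytoskeleton and SRF target genes 9 were higher and 0 lower (median 1.13), with ZYX, a focal adhesion protein, at 27983 and 174828 (2.95) and ACTB at 519483 and 1121159 (1.42). Of 11 tubulins 4 were higher and 0 lower (median 0.96). Among mesenchymal genes 7 of 12 were higher and 0 lower (median 1.55), while 10 others, ZEB1, ZEB2 and CDH2 among them, were under 5 CPM. TGFBI, a secreted matrix protein, became the gene with the most counts of the AL-X library, with 252260 counts with DMSO and 1123748 with AL-X (2.46). SNAI1, a repressor of epithelial genes, had 3367 and 67889 (4.64) and VIM, an intermediate filament protein, 39474 and 116153 (1.87).

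Of 22 epithelial junction and keratin genes 3 were higher and 3 lower, and their median of -0.00 became 0.10 when the factors came from the H1975 libraries alone. CDH1, the epithelial cadherin that SNAI1 can repress, had 74521 counts with DMSO and 60572 with AL-X (0.01). Lower were CLDN3 (2312 and 351, -2.40) and the epithelial transcription factor GRHL2 (9199 and 1751, -2.08). KRT17, a keratin of injured epithelium named by its size of change, had 16 counts with DMSO and 1106 with AL-X (6.24), and KRT81 had 178 and 1403 (3.27).

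YAP and TEAD targets were split between a few strongly higher genes and the rest, 7 of 19 higher and 2 lower, with a median of 0.16 that became -0.25 with library totals. CCN2 (chr6:131948176-131951373), a matricellular protein, had 246 counts with DMSO and 27037 with AL-X, a log2 fold of 7.08 (95% interval 6.91 to 7.28), and CCN1 had 5438 and 116618 (4.73). AMOTL2 was at 2.75, while YAP1 and TEAD1 themselves were at -0.65 and -1.23.

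Of 6 lung lineage genes considered 1 was higher and 3 were lower, with a median of -0.72. NKX2-1, which defines lung epithelium, had 17681 counts with DMSO and 1905 with AL-X, a log2 fold of -2.90 (95% interval -2.97 to -2.84). SOX9 and FOXA2 were at -1.43 and -1.37, and the higher member was NAPSA, a protease of lung epithelium (826 and 1355, 1.02). MUC1 and ABCA3 were at 0.31 and -0.07, and 16 of the 22 listed lung genes, surfactant genes among them, were under 5 CPM. In the NFI, ID and SMAD list 4 of 15 were higher and 6 lower. ID2, a dominant-negative helix-loop-helix protein, had 922 counts with DMSO and 21681 with AL-X (4.86), and ID3 and ID4 were at 2.23 and 2.35. SOX4 had 9709 and 622 (-3.65), NFIB 7617 and 875 (-2.81) and SMAD3 24534 and 5013 (-1.98).

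Of the 12 largest falls among protein-coding genes, IRF2BPL (chr14:77024543-77028699), a transcription co-regulator encoded by a single exon, had 21011 counts with DMSO and 373 with AL-X (-5.50, interval -5.66 to -5.36). SOX21, a SOX repressor, had 1369 and 28 (-5.22), the zinc finger gene ZNF594 1758 and 34 (-5.31), and the pyruvate dehydrogenase kinase PDK4 2312 and 57 (-4.99). Next came NECTIN4, an adhesion molecule (3268 and 106, -4.61), ETAA1, an activator of the ATR kinase (2669 and 87, -4.60), the actin-binding gene AVIL (-4.48), PLEKHS1 (-4.33) and CCDC71 (-4.28). RGS2, which shortens G protein signals, belonged to the largest rises with 64 counts with DMSO and 6557 with AL-X (6.94).

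Of 26 sterol and fatty acid synthesis genes 9 were higher and 1 lower (median 0.42, or 0.01 with library totals). MSMO1, MVD and the feedback protein INSIG1 had 6227 and 32232, 8147 and 39731 and 21106 and 96135 (2.68, 2.59 and 2.50). The fatty acid desaturase SCD was the lower member, with 197429 counts with DMSO and 70858 with AL-X (-1.17). Within 2-fold lay STARD4, a sterol carrier (-0.91), ACACA and ELOVL6 of fatty acid synthesis (both at -0.79), and the fatty acid synthase FASN (0.23).

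Classes of RNA differed in balance. Among 424 long non-coding RNA genes 59 were higher and 205 lower, with a median of -0.91, against 0.08 for 10922 nuclear protein-coding genes. LINC02925 had 1265 counts with DMSO and 17 with AL-X (-5.77). The host transcripts of microRNAs went both ways (MIR22HG and MIR34AHG were picked after their values were seen): MIRLET7A1HG had 616 and 11474 (4.52), MIR22HG 1114 and 15756 (4.13), and MIR34AHG, the host of a p53-responsive microRNA, 1573 and 38 (-5.00). The nuclear RNAs MALAT1 and NEAT1, picked likewise, were at -1.40 and 0.71. The strand setting of the counting is not given in the sources used here, so counts of antisense and overlapping genes cannot be told apart.

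Of 15 nuclear genes for small and structural RNAs 14 were at least 2-fold higher, with a median of 4.21, although such RNAs mostly lack a poly(A) tail. Apart from the RN7SL genes, with log2 folds between 0.88 and 1.32, all were under 5 CPM with DMSO. Those others passed the minimum only through the AL-X library, so their upward direction was fixed by it and sets the median. All 8 genes for 5.8S ribosomal RNA had log2 folds between 4.10 and 4.26 and, being copies of 1 sequence, are not independent. RN7SK, a regulator of transcription elongation, had 220 counts with DMSO and 4121 with AL-X (4.52). RN7SL1, the RNA of the signal recognition particle, had 2888 and 5353 (1.20). The share of all counts in this class was 0.0177% with DMSO and 0.0478% with AL-X, and how much RNA without a tail passed the selection in either library was not tested.

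The highest of the class was SNORD14E, a small nucleolar RNA that guides modification of ribosomal RNA. It had 12 counts with DMSO and 4290 with AL-X, a log2 fold of 8.55 (95% interval 7.98 to 9.74). It lies at chr11:123058077-123058161 on the minus strand of GRCh38 within HSPA8, and 0 of 58 annotated HSPA8 exons cover it, so its place is intronic. The neighbouring SNORD14D (chr11:123058909-123058995) had 1 and 97 counts and SNORD14C (chr11:123059335-123059422) 1 in each library, and 2 annotated exons cover each of those. The GENCODE sequences are given to compare the 3 copies, with the box C letters TGATGA and, where present, the box D letters CTGA in capitals.
SNORD14C: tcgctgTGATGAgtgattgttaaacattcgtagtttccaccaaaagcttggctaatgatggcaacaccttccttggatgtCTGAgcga
SNORD14D: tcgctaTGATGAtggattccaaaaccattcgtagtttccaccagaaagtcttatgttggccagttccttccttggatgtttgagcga
SNORD14E: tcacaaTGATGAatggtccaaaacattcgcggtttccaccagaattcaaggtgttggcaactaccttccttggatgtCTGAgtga
Whether reads counted for SNORD14E came from the snoRNA or from unspliced HSPA8 RNA cannot be told apart in gene counts.

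Some rises sit on annotations that overlap a neighbour. SPECC1L-ADORA2A, a readthrough of SPECC1L into ADORA2A (chr22:24270898-24442356, plus strand), had 0 counts with DMSO and 1161 with AL-X, at least 479-fold higher against a floor of 3 counts. ADORA2A had 1326 and 57 (-4.19) and SPECC1L 18141 and 15100 (0.04) and reads of these overlapping genes cannot be told apart. HSPA7, a pseudogene of HSPA6, had 28 and 3263 (7.07) and shares sequence with it. RFPL4A, the single one of 20 early-embryo genes to reach 5 CPM, had 10 counts with DMSO and 828 with AL-X (6.40), with near-identical paralogs.

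Zinc finger genes stood out among the lower genes when gene families were compared by symbol, a comparison chosen after the values were seen. Of 457 genes with a ZNF, ZFP, ZSCAN, ZKSCAN or ZBTB symbol 43 were higher and 219 lower, with a median of -0.93, against 0.11 for the other 10465 protein-coding genes. Zinc finger and other genes were not compared at matched level. Translation factors with an EIF symbol showed the opposite balance, 24 of 52 higher and 1 lower (median 0.88), as did the chaperonin subunits, 7 of 8 higher. Solute carriers, with 21 of 185 higher and 27 lower (median 0.04), were close to all genes.

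The fold was related to gene structure. In 5 groups of equal size by exonic length, from shortest to longest, the median log2 folds of protein-coding genes were 0.62, 0.27, 0.10, -0.13 and -0.46. Across the 10922 genes Spearman's rho of fold and exonic length was -0.36, given as a description because genes share both libraries. Genes whose longest model has 1 exon had a median of -0.57 (138 genes), those with 6 to 10 exons 0.28 (3438), and those with more than 20 exons -0.35 (1646). Level went with the fold as well: in such groups by mean level the medians were -0.55 in the lowest and 0.57 in the highest. Ribosomal protein genes, with a median exonic length of 3109 bases at the border of the shortest group, had a median of 1.31 beside 0.62 for that group. Proteasome genes, of 4490 bases, had 1.17 beside 0.27 for the next group. Exonic length here merges the exons of all annotated models of a gene and can exceed the length of its mRNA. None of these comparisons is therefore at matched mRNA length. RNA integrity is not given in the sources used here, and its part in the relation with length was not tested.

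**Figure D4:**
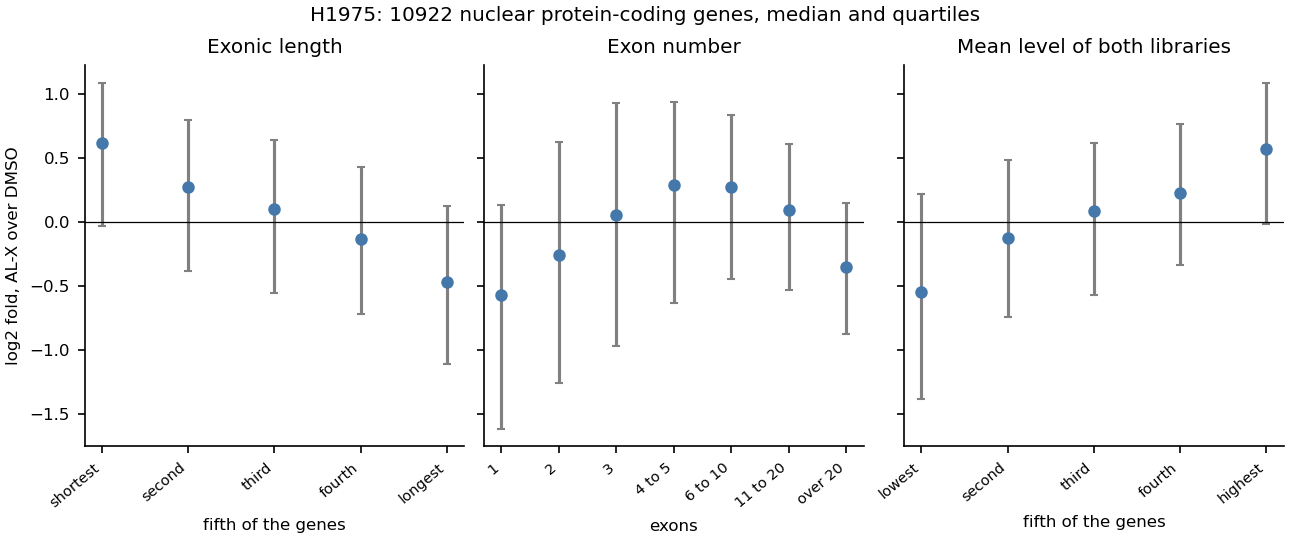
Median log2 fold (points) with quartiles (bars) of nuclear protein-coding genes of H1975, by exonic length and by mean level of both libraries in 5 equal groups each, and by exon number. Medians go from 0.62 to -0.46 with length and from -0.55 to 0.57 with level, and are lowest for genes with 1 exon among the groups by exon number.

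The other lines give context for each value. Of the 1815 genes 2-fold higher in H1975, 80.0% were also 2-fold higher in A549 and 20.6% in HCC827, and 311 in both. Over all 11818 genes considered, 28.2% were 2-fold higher in A549 and 9.60% in HCC827. Of the 2109 lower genes, 71.4% were lower in A549, 30.7% in HCC827 and 515 in both, where the shares over all genes considered were 31.3% and 16.6%. Neither other line reached 2-fold in that direction for 301 of the higher and 470 of the lower genes. Median log2 folds of the same list members in H1975, A549 and HCC827 were 1.90, 2.99 and 0.12 for cytosolic chaperones, and 1.31, 1.94 and -0.50 for ribosomal proteins. They were 1.55, 2.03 and 1.71 for the integrated stress response, 1.96, 5.27 and 0.97 for immediate-early genes, and 0.35, 0.36 and -1.49 for replication genes. For the 13 mitochondrial mRNAs the medians were -8.22, -10.02 and -5.91. These values stand side by side, without a test of each difference.

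**Figure D5:**
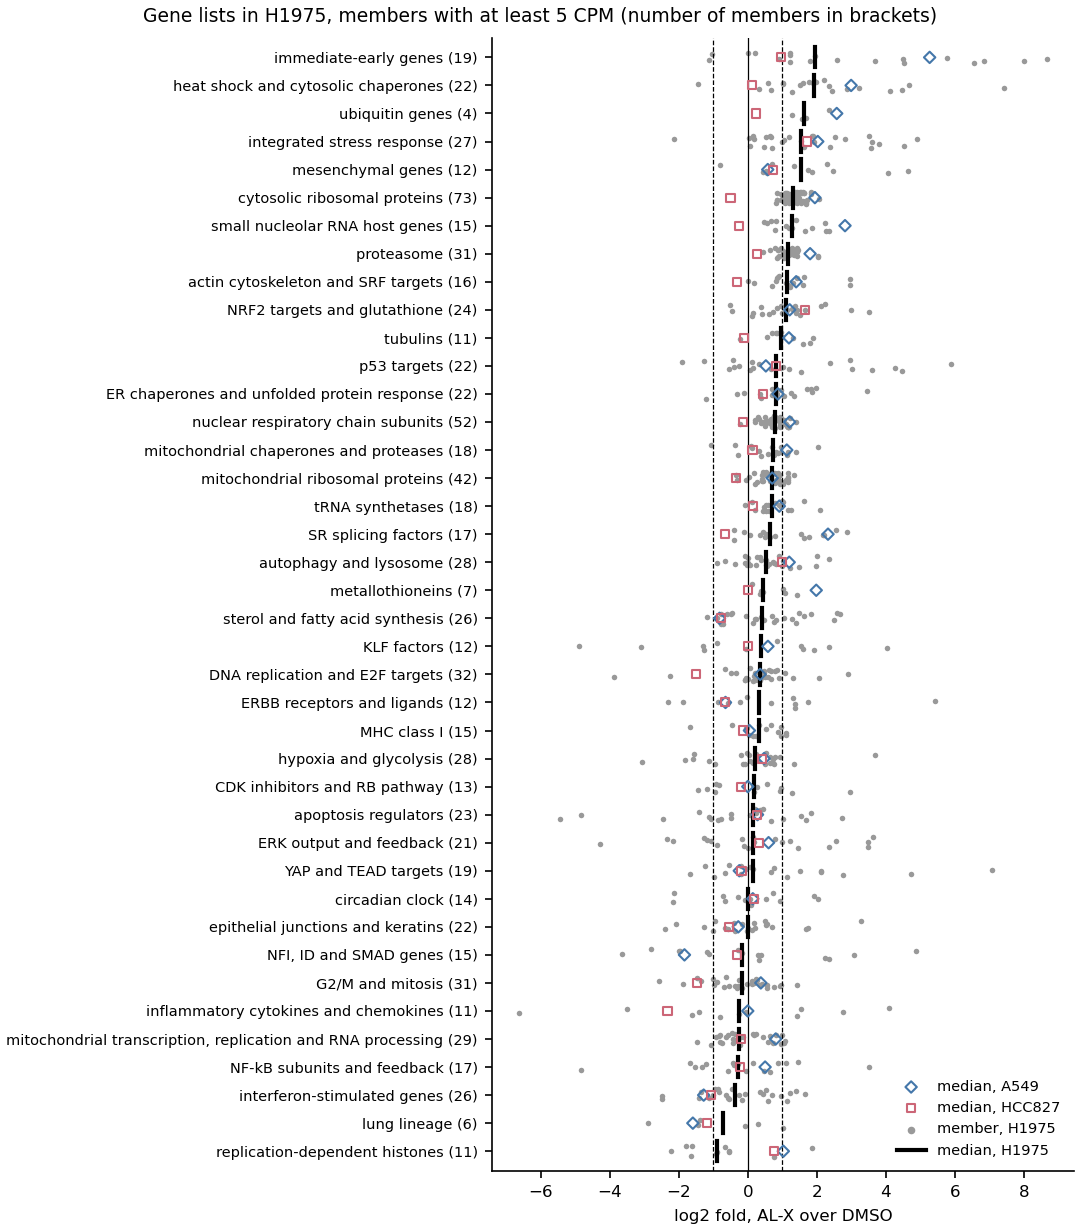
Log2 folds of AL-X over DMSO for the considered members of each list of nuclear genes with at least 4 of them in H1975 (grey points) with their median (black bar), and the medians of the same members in A549 (blue diamonds) and HCC827 (red squares). Immediate-early genes and cytosolic chaperones have the highest H1975 medians, 1.96 and 1.90, and histones the lowest, -0.88. Members under 5 CPM with DMSO could enter only by being higher.

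The test of a difference between lines asked whether the effect of AL-X in H1975 differed from the mean of its effects in A549 and HCC827. With 1 residual degree of freedom it rests on the difference between those 2 lines. edgeR's quasi-likelihood test called 0 of 20344 genes at a Benjamini-Hochberg adjusted p of 0.05, 0.0%, with 236 at an unadjusted p under 0.05 (94 higher and 142 lower in H1975) and a smallest adjusted p of 0.232. limma-voom called 2 genes and DESeq2 called 8, and SPECC1L-ADORA2A and ENSG00000267523 were called by both. PTGS2, picked after its values were seen, is an example, with log2 folds of 4.10 in H1975, 0.02 in A549 and -4.93 in HCC827, and an edgeR adjusted p of 1.0.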

How the data were processed

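Unnormalized read counts of Ensembl genes, as the authors deposited them, covered 6 poly(A) libraries, of which the 2 H1975 libraries were compared. The submitters' processing notes name bcl2fastq 2.20 and GRCh38; which aligner, counter, annotation release, strand setting or barcode handling followed is not given in the sources used here. Counts were scaled with TMM factors (edgeR 4.0.16, R 4.3.3; filterByExpr; 1.20 for DMSO and 0.902 for AL-X), and log2 folds used a prior count of 2. Genes were considered from 5 CPM in whichever library was higher, and counted as different at 2-fold. Positions, gene types and merged exonic lengths are those of GENCODE 29. The scripts were tested on simulated data.

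The interaction of AL-X with H1975 was fitted on all 6 libraries with edgeR's robust quasi-likelihood test, the cell line as block; limma 3.58.1 and DESeq2 1.42.0 were alternatives. Named genes were the 12 largest rises and 12 largest falls among protein-coding genes with at least 10 CPM, 4 each way of other types, all mitochondrial mRNAs, 2 at either end of each list, and fixed genes. The members and lists were chosen with earlier results of these data known. The check of other settings is given in the closing section.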

Additional observations from a re-analysis of the deposited data

Results flagged for a closer look

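In 4 gene lists, cell type markers aside, the median log2 fold of H1975 had the opposite sign to that of both other lines, and these differences were not tested. The ERBB receptors and ligands had a median of 0.3254 in H1975 (12 genes) against -0.65 in A549 and -0.65 in HCC827, and 0.33 became -0.08 with library totals. The histone list had -0.8823 (11 genes) against 1.03 and 0.76. The sterol and fatty acid list had 0.4227 (26 genes) against -0.82 and -0.78, and 0.42 became 0.01 with library totals. The YAP and TEAD targets had 0.16 (19 genes) against -0.25 and -0.18, and -0.25 in H1975 itself with library totals.

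Of the genes named by rule, 2 were past 2-fold in H1975 and past 2-fold the opposite way in both other lines. SPECC1L-ADORA2A had a fitted log2 fold of 9.3637 in H1975 (0 and 1161 counts), which depends on the prior count and is no bound, against -1.59 in A549 and -6.81 in HCC827; its edgeR adjusted p for the difference was 0.232. NAPSA, a protease of lung epithelium, had 1.021 in H1975 (826 and 1355 counts) against -3.08 in A549 and -1.21 in HCC827, with an edgeR adjusted p of 1.0. Another 9 named genes past 2-fold in H1975 had the opposite sign in both other lines without reaching 2-fold in each, among them JUN (-1.03 against 5.27 in A549 and 0.97 in HCC827), NDRG1 (-1.82 against 0.55 and 2.00) and MYL9 (2.96 against -1.53 and -0.45). PHLDA1, named beyond the rule, had -1.07 against 1.16 and 1.24. The summary of the 6 epithelial markers, 0.36 against -0.13 and -0.51, also differed in sign.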

How the results depend on the processing

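With DESeq2 size factors, TMM on the H1975 libraries alone, TMM without mitochondrial genes, TMM before any filter (added after the data were seen) and a prior count of 0.5, the counts of genes 2-fold higher and lower stayed within 1.5 times of 1815 and 2109. With library totals they were 830 and 3389, with no filter on low counts 4682 and 9195, and with at least 1 CPM 3493 genes were lower, with at least 20 CPM 1123. Against 0 calls of the interaction test by edgeR, limma-voom called 1 gene higher and 1 lower in H1975 and DESeq2 called 1 higher and 7 lower; edgeR with library totals, no filter or no robust shrinkage called 0 genes, with 113, 412 and 223 at an unadjusted p under 0.05. No value reversed past 2-fold. Library totals changed the sign of 11 of 46 list medians, and of 168 named genes past 2-fold 14 no longer were. With them 5 of 13 list medians past 2-fold no longer were: ribosomal proteins (1.31 to 0.90), small nucleolar RNA hosts (1.28 to 0.87), proteasome (1.17 to 0.76), actin and SRF targets (1.13 to 0.72) and NRF2 targets (1.11 to 0.70). Besides the lists named above, the sign changes were in the RB pathway (0.19 to -0.22), MHC class I (0.31 to -0.10), hypoxia and glycolysis (0.21 to -0.20), the circadian clock (0.02 to -0.39, and -0.01 with TMM before any filter) and the epithelial markers (0.36 to -0.05). No paired analysis was possible because H1975 has 1 library in each group, and for the same reason no replicate could be left out. Genes under 5 CPM in both libraries, 48853 of the rows, were left out by the chosen minimum. INSIG1-DT, just under it, had 626 counts with DMSO and 311 with AL-X, and depth limits the rows with the fewest counts.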

Other observations

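Other gene groups of H1975 are given as values. Of 26 interferon-stimulated genes 4 passed 2-fold upward and 6 downward, and the median log2 fold was -0.36. DDX60, an antiviral helicase, had 13310 counts with DMSO and 1903 with AL-X (-2.50), and IFIT5 had 4522 and 649 (-2.49), whereas IRF7, the interferon regulatory factor, had 3062 and 7859 (1.67) and ISG15, the ubiquitin-like modifier, 6859 and 13046 (1.24). Of 15 MHC class I genes 2 were higher, among them HLA-E (21126 and 36669, 1.10), and 1 was lower, the transactivator NLRC5 (13455 and 3378, -1.68).

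Of 28 hypoxia and glycolysis genes 2 were higher and 5 lower. EGLN3, an oxygen-sensing hydroxylase, had 2018 and 193 counts (-3.07), NDRG1 66916 and 15305 (-1.82) and the hexokinase HK2 32473 and 8646 (-1.60). GAPDH had 276420 and 382384 (0.78). Of 14 circadian clock genes 2 were higher and 2 lower. The repressors BHLHE40 and BHLHE41 were at -2.17 (40572 and 7283 counts) and -2.14 (912 and 166), against CRY2 at 1.92 (955 and 2918) and CIART at 2.03 (719 and 2382).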
